A study of Mus musculus with 4 samples.

Results

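The Egr genes encode the 4 members of a family of zinc finger transcription factors, Egr1, Egr2, Egr3 and Egr4, and were read on arrays of the dentate gyrus (DG) after electroconvulsive stimulation (ECS), a rodent model of electroconvulsive therapy. The members were taken by symbol, as every probe set (a group of oligonucleotides that reads 1 transcript) annotated to a single one of these symbols. This gave 4 genes of 12393 and 5 probe sets of 20380, with 1 probe set each for Egr1, Egr3 and Egr4 and 2 for Egr2.

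All mice were C57Bl/6, and by the study's methods they were males of 8 weeks of age when obtained. The sham group was handled and anaesthetised with isoflurane without a current in 1 session and taken at 1 h. The single ECS group was taken 1 h after 1 bilateral shock of 25 mA through ear clips, the 10 ECS group 48 h after the last of 10 sessions, and the 11 ECS group 1 h after the last of 11 sessions, with up to 4 sessions a week. By the study's account the 10 ECS mice also received a control session shortly before dissection. With no group of repeated sham sessions, earlier shocks cannot be told apart from the repeated anaesthesia and handling that came with them. Each group was 1 array carrying the pooled RNA of 3 mice, so no spread between mice or arrays could be measured and no test was possible. Groups were taken from the sample titles, whose treatments disagree with the description field in 3 of 4 samples.

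EGR proteins bind GC-rich sites in DNA through 3 zinc fingers at their carboxyl end, and most members carry a domain through which the corepressors NAB1 and NAB2 bind. In neurons the Egr genes are immediate early genes: calcium entry and MAP kinase signalling activate the serum response factor SRF with its ETS partners (such as ELK1) and CREB, which are already present and need no new protein synthesis. Egr1 and Egr3 are widely used as reporters of neuronal activity and have been linked to memory and synaptic plasticity. Egr2 is best known for hindbrain patterning and for peripheral myelin.

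The DNA next to the start sites is printed to show matches to the motifs of these activators, for both members found among the promoter sequences of RefSeq (mouse assembly GRCm38.p6), Egr2 and Egr4. Egr1 and Egr3 were not matched. Of 250 bases before a start site, those of Egr2 are on the plus strand at chr10:67537619-67537868 and those of Egr4 on the minus strand at chr6:85513590-85513839. Those of Nab1, on the minus strand at chr1:52500449-52500698, are shown as an example of the EGR motif itself, chosen for holding it. Capitals mark the CArG box, the binding motif of SRF, the CREB core motif TGACG, and the EGR motifs GCGTGGGCG and GCGGGGGCG, each searched on both strands. Read from the opposite strand, the CREB motif is CGTCA.
Egr2: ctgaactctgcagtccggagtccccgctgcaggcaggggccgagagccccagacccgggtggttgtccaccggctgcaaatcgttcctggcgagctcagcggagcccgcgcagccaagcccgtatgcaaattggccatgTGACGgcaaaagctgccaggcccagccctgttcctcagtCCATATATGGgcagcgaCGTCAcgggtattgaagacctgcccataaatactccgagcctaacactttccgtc
Egr4: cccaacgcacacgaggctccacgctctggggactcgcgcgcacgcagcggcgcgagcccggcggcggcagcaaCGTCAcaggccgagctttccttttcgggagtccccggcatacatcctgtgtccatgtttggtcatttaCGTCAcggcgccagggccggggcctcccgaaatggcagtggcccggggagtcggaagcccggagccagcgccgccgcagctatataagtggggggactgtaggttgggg
Nab1: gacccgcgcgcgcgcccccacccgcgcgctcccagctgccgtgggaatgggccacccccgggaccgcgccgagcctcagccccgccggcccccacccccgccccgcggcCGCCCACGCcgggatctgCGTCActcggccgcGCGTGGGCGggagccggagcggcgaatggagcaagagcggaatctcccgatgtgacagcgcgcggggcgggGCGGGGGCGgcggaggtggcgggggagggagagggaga

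The printed Egr2 stretch held 1 CArG box, with 62 bases between it and the start site, flanked by 2 CREB core motifs with 106 and 50 bases to the start site. RefSeq gives Egr2 5 start sites. A CArG box was found before 4 of them and a core motif before 3, and the windows of the last 3 overlap and share the same matches. Egr4 had 2 core motifs, with 172 and 104 bases to the start site, and no CArG box in this window. Nab1 had 2 matches to GCGTGGGCG, 1 to GCGGGGGCG and 1 core motif. The windows of Nab2 and Srf, looked up as well, are not printed: that of Nab2 held 0 matches to any of these motifs, and that of Srf held 2 CArG boxes, 1 core motif and 1 GCGGGGGCG. Among all 32851 windows of this length, 1.47% held a CArG box, 17.8% a core motif, 0.536% GCGTGGGCG and 2.57% GCGGGGGCG. These are matches of letters and not measured binding.

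Arrays were comparable in general quality. The median signal was between 56.3 and 69.3 units, highest in sham, and Gapdh, a control for intact RNA, gave 3'/5' ratios between 0.963 and 1.06. Those of Actb, another such control, were higher, between 1.91 and 1.95, and alike on all arrays. No marker of the 8 cell types looked at was under the floor on all arrays. Among the markers of the cell types the tissue could hold, 5 granule cell genes summed to 6381 units in sham and 5432 after single ECS. They summed to 3662 after 10 ECS and 3269 after 11 ECS. The lower sums came from Calb1, Dsp and Tdo2, with Calb1 at 3234 units in sham and 1304 after 11 ECS, while Neurod1 read 1086 and 1238 and Prox1 68.6 and 62.7. The 4 general neuronal markers summed to between 9079 and 9993 units. Most of this was Snap25, at 8734 units in sham and 8052 after 11 ECS. In the same order Rbfox3 read 449 and 311 units, Syt1 314 and 181, and Tubb3 495 and 535. The 3 choroid plexus genes summed to 265 units after single ECS and to between 116 and 156 on the other arrays. Of these, Ttr alone was higher after single ECS than in sham, at 216 against 67.2 units, while Kl read 38.4 against 74.3 and Folr1 10.9 against 14.7. Their part in the results below was not tested. In RNA from whole tissue, fewer cells of a type and less RNA per cell cannot be told apart.

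All 4 Egr genes had higher signals 1 h after a single ECS than after sham. For each ratio, signals below a floor of 12 units (their 25th percentile) were raised to it, and ratios against the floor are lower bounds, given as at least so many fold. A gene was represented by its brightest probe set. At least 2-fold higher were 4 of 4 members, against 1.20% of 10133 genes in all. The members' median log2 ratio exceeded the all-gene median of -0.24 by 3.25. With a floor of 50, or with 16 units added to each signal, Egr3 dropped below 2-fold.

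Egr2 showed the largest ratio of all 10133 genes. Its brightest probe set read 12.3 units in sham, 423 after single ECS, 6.6 after 10 ECS and 320.5 after 11 ECS. Both arrays 1 h after a stimulation were thus high, and the others were at or near the floor. The first ratio was 34.4-fold, but it starts from a signal just above the floor, so its size depends on a level that is hardly measurable. The second probe set read 1.0, 175, 0.9 and 209 units in the same order. It gave a ratio of at least 14.6-fold after single ECS, and sham and 10 ECS were below the floor on it.

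Egr4, a member found mainly in neurons, read 26.5 units in sham, 299 after single ECS, 27.1 after 10 ECS and 109 after 11 ECS. Single ECS stood highest, 11 ECS between, and the arrays without a recent shock were close to each other. The first ratio was 11.3-fold, a log2 ratio of 3.50, and ranked 11th of all genes. This log2 ratio was 2.58 with a floor of 50 and 2.89 with 16 units added. Egr1, the founding member and the one most used as a marker of activity, read 988 units in sham, 5713 after single ECS, 539 after 10 ECS and 4963 after 11 ECS. Its first ratio was 5.78-fold and ranked 23rd. Both 1 h arrays after ECS were high for Egr1, and its lowest signal was that after 10 ECS.

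Egr3, an activity-induced member with a role in muscle spindles and synaptic plasticity, had the smallest first ratio of the family. It read 35.1 units in sham, 80.9 after single ECS, 33.5 after 10 ECS and 40.9 after 11 ECS. Only the single ECS array stood apart. The ratio of 2.30-fold ranked 92nd, and among the 3029 genes with a mean signal of 50 to 200 units on these arrays 0.792% were at least 2-fold higher.

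**Figure D1:**
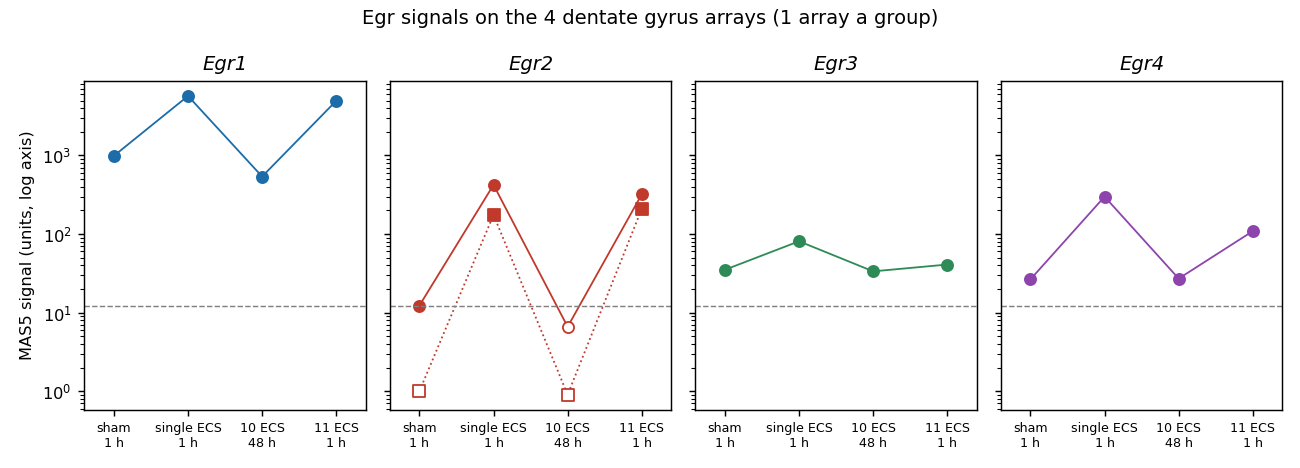
MAS5 signal (units, log axis) of the Egr genes on the 4 arrays, each point 1 array; circles are the brightest probe set, squares the second probe set of Egr2, open symbols lie at or under the floor of 12 units (dashed line). After single and 11 ECS, Egr1 reads 5713 and 4963 units, Egr4 299 and 109, and Egr3 80.9 and 40.9. Egr2 reads 423 and 320.5 units on the brightest probe set and 175 and 209 on the other. Heights cannot be compared between probe sets.

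The 11th ECS was set against the 10 ECS array, which shares no array with the first comparison. At least 2-fold higher were 3 of 4 members, Egr1, Egr2 and Egr4, against 1.06% of 10046 genes. The members' median log2 ratio exceeded the all-gene median by 2.71. Egr2 was higher by at least 26.7-fold on the brightest probe set and by at least 17.4-fold on the other. Egr1 was 9.21-fold higher, the 10th highest ratio of all genes, and Egr4 4.02-fold, the 23rd. Egr3 was 1.22-fold higher, a log2 ratio of 0.29, where probe sets of the same gene differed by a pooled SD of 0.27.

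**Figure D2:**
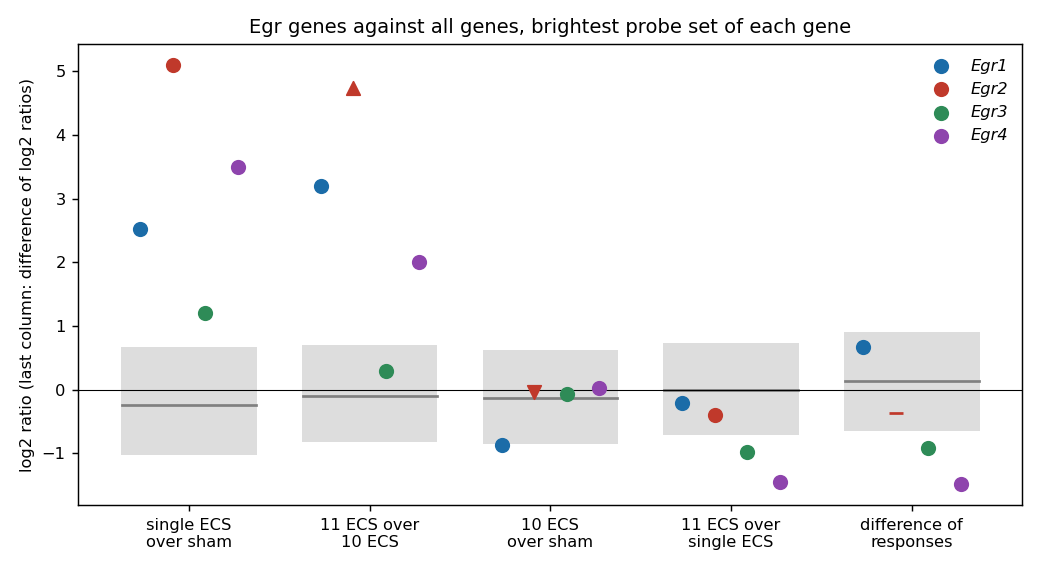
Log2 ratios of the Egr genes in the 4 comparisons and, in the last column, the difference of responses (11 ECS over 10 ECS minus single ECS over sham). Grey bars span all genes but 2.5% at each end with the median as a line, triangles are bounds set by the floor, and the dash of Egr2 rests on a bound; Egr3 and Egr4 lie below the grey bar in the last column, at -0.92 and -1.49.

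These arrays address whether earlier sessions change the response to a further one, and the 4 members differed in this. The difference of responses was -1.49 for Egr4 on the log2 scale, a response 2.81-fold smaller, and -0.92 for Egr3, 1.89-fold smaller. It was 0.67 for Egr1, 1.59-fold larger. The study's quantitative PCR on the same RNA samples, with replicates, compared relative expression between groups, which is not this difference of ratios. There, repeated ECS significantly reduced the induction of Egr1 at 1 h. By signal, the 11 ECS array likewise read lower for Egr1, at 86.9% of the single ECS array. The larger second ratio of Egr1 goes with a lower signal after 10 ECS, 539 units against 988 in sham. Across the 8999 genes above the floor on all arrays the median difference was 0.13 and all but 2.5% of genes at each end lay between -0.64 and 0.90, so Egr3 and Egr4 lay below this range and Egr1 within it. Counted from the lowest, Egr4 was 14th and Egr3 87th. Among the 3 members with no array at the floor, the second response was at least 2-fold smaller in 1, Egr4, against 0.711% of these genes. After scaling the arrays to a common median or trimmed mean, or after quantile normalization, Egr3 passed this limit too. For Egr2 the second response was a bound, so its difference was at least -0.36 by the brightest probe set. By the other probe set both responses were bounds and no difference could be given. The pooled SD between probe sets of a gene was 0.35 for this difference.

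In the signals at 1 h alone, 11 ECS against single ECS, Egr3 and Egr4 again had the lowest ratios of the members. Egr1, with the larger second ratio above, was slightly lower here. These ratios share the 1 h arrays with the values above and are no separate evidence. The 11 ECS signal was 86.9% of the single ECS signal for Egr1, 75.8% and 119.5% for the Egr2 probe sets, 50.6% for Egr3 and 36.4% for Egr4. At least 2-fold lower was 1 of 4 members, Egr4 at 2.75-fold, against 0.782% of 9971 genes. Egr3 was 1.98-fold lower, just short of the limit. Counted from the lowest ratio, Egr4 ranked 11th and Egr3 84th. The log2 ratio of Egr1 was -0.20, within the pooled SD of 0.28 between probe sets, and those of the Egr2 probe sets were -0.40 and 0.26, of opposite sign.

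The starting level of Egr1 differed between its responses. At 48 h after 10 ECS it read 539 units against 988 in sham, 1.83-fold lower, a log2 ratio of -0.88 against a median of -0.14 over all genes. In units, Egr1 gained 4724 after the first ECS and 4424 after the 11th, 93.6% of the first, so that the order of both responses depends on whether a ratio or a gain is taken. The gains of Egr4 were 273 and 81.8 units, 30.0% of the first, and those of Egr3 45.8 and 7.4 units, 16.2%. For Egr2 the second gain was 76.5% of the first by the brightest probe set and 119.7% by the other. On either scale Egr3 and Egr4 had the smaller second response.

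Between sessions, at 48 h after 10 ECS, 0 of 4 members were at least 2-fold higher than sham, against 0.716% of 10202 genes, and 0 of 4 at least 2-fold lower, against 1.22%. Egr3 and Egr4 were close to sham. Egr4 had a log2 ratio of 0.03 and Egr3 of -0.07, both within the pooled SD of 0.29 between probe sets. Egr2 was below the floor after 10 ECS and just above it in sham, so its resting levels cannot be compared.

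**Figure D3:**
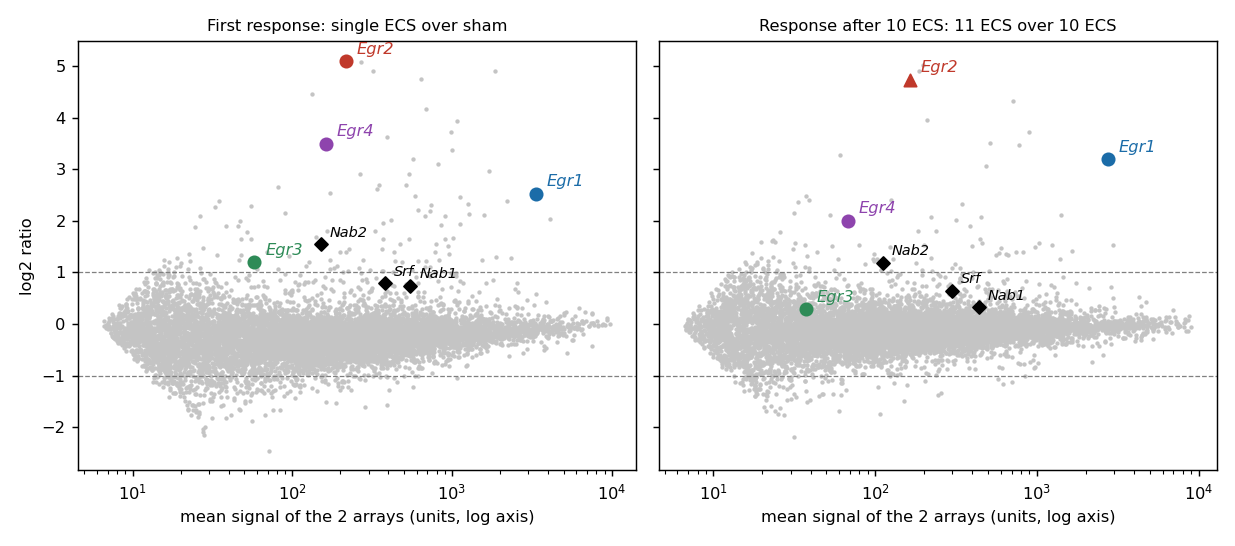
Log2 ratio against the mean signal of both arrays compared (units, log axis) for all genes (grey), the Egr genes (colour; triangle, a bound) and the cofactor and activator genes Nab1, Nab2 and Srf (black); dashed lines mark 2-fold. Egr2 stands at the top of the first response, Egr3 is dim on both sides, and Nab2 lies above 2-fold on both.

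Both EGR corepressor genes also had higher signals 1 h after ECS. Nab2, which binds EGR proteins and represses their targets, read 76.7 units in sham, 225 after single ECS, 68.0 after 10 ECS and 155.5 after 11 ECS. Both 1 h arrays were the highest, with ratios of 2.93-fold and 2.29-fold. Nab1, its paralog, read 410.5, 688, 386 and 487 units, with ratios of 1.68-fold and 1.26-fold, and its dimmer probe set had log2 ratios of 0.90 and 0.35. Of 9 genes listed as cofactors and regulators of EGR proteins, 8 were read. Chd3 among them was read by a probe set annotated to a synonym and not to Chd3 itself, so it may read another gene. Of the 8 read, 1, Nab2, was at least 2-fold higher in each response and 0 lower. Over all genes, 1.20% were higher and 2.89% lower after the first ECS, and 1.06% higher and 1.21% lower after the 11th. Relative to all genes, the median of the list was 0.10 after the first ECS and -0.05 after the 11th. The acetyltransferase gene Crebbp and the helicase gene Ddx20 had log2 ratios of -0.61 and -0.42 after the first ECS and of -0.36 and -0.58 after the 11th.

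The activators upstream of the Egr genes were 22 listed genes of which 14 could be read. At least 2-fold higher were 0 of 14 in both responses, and at least 2-fold lower were 2 after the first and 1 after the 11th, beside 2.89% and 1.21% of all genes. Srf read 277 units in sham, 481 after single ECS, 231 after 10 ECS and 362 after 11 ECS. It was 1.74-fold and 1.57-fold higher, with both 1 h arrays above the others, and its dimmer probe set had log2 ratios of 1.20 and 0.70. Elk1, an ETS partner of SRF, had the opposite order. It read 306 units in sham and 365 after 10 ECS, but 143 after single ECS and 144 after 11 ECS. Elk1 was thus 2.15-fold lower after the first and 2.54-fold lower after the 11th, and its dimmer probe set had log2 ratios of -0.61 and -1.04. Relative to the median of all genes the first log2 ratio of Elk1 was -0.86, under 2-fold. The NMDA receptor gene Grin2b was at least 2.95-fold lower after the first ECS by a probe set that read 35.4 units in sham, while its other probe set had a log2 ratio of 0.50. Among genes with a mean signal of 12 to 50 units on these arrays, as for this probe set, 7.40% were at least 2-fold lower. Mrtfa, an SRF coactivator gene, had log2 ratios of -0.74 and -0.35. Relative to all genes, the list had medians of 0.18 and 0.12.

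**Figure D4:**
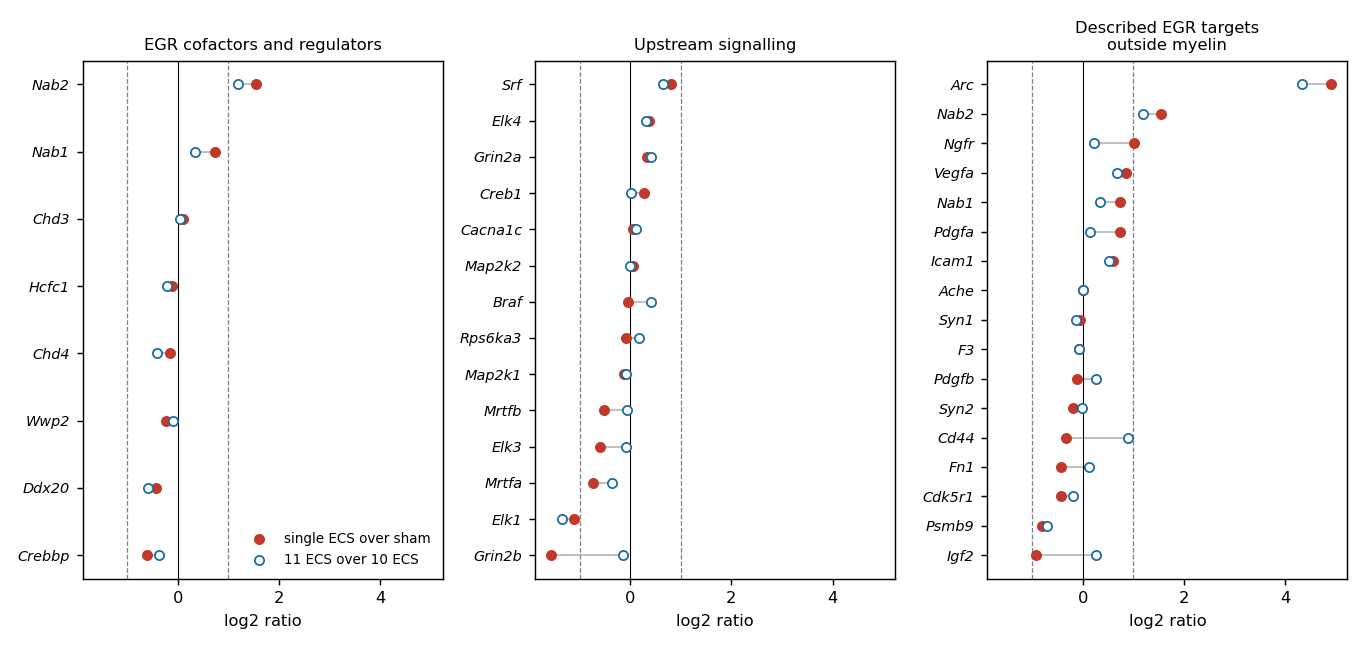
Log2 ratios after the first ECS (filled) and the 11th ECS (open) for genes that work with, upstream of or downstream of EGR proteins, brightest probe set of each gene (for Chd3, a probe set annotated to a synonym); dashed lines mark 2-fold. Nab2 and Arc lie to the right of 2-fold in both responses and Elk1 to the left in both.

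Genes that have been described as targets of EGR factors outside myelin included some with large ratios. Of 21 listed, 18 could be read and 17 were above the floor on at least 1 array of both responses. At least 2-fold higher were 3 of 17 after the first ECS and 2 of 17 after the 11th, with 0 lower in either. Over all genes the shares were 1.20% and 1.06% higher and 2.89% and 1.21% lower. Relative to all genes, this list had medians of 0.18 and 0.33. Arc, a synaptic plasticity gene with its own activity-dependent enhancer, was 30.1-fold and 20.1-fold higher, and Nab2 is counted in this list as well. Ngfr, a neurotrophin receptor gene, passed the limit after the first ECS as at least 2.02-fold, from 12.0 to 24.2 units, while its other 2 probe sets were below the floor on all arrays. Cd44, an adhesion receptor gene, had log2 ratios of -0.33 and 0.90, and 2.16-fold more signal after 11 ECS than after single ECS.

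Of 11 genes listed as EGR2 targets in myelin and hindbrain, 8 could be read and 3 of these were at the floor on all arrays. Of the other 5, 0 were at least 2-fold higher or lower in either response, which at all-gene shares between 1.06% and 2.89% says little of so few genes. Mag, a myelin glycoprotein gene, had log2 ratios of -0.45 and 0.38, Ndrg1 of -0.23 and 0.06, Epha4 of -0.36 and -0.40 and Pmp22 of -0.03 and 0.29. The summed signal of 3 oligodendrocyte markers was between 1818 and 2395 units. Of the related zinc finger factors, Wt1 was at the floor on all arrays. Sp4 was 2.42-fold lower after 10 ECS than in sham, with 153 units in sham, 85.9 after single ECS, 63.4 after 10 ECS and 68.1 after 11 ECS. Sp3 and Sp1 had log2 ratios of -0.70 and -0.07 after the first ECS.

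The genes with profiles closest to each member were found by the root mean square (RMS) difference of the 4 log2 signals, each centred on its mean. Likeness over 4 points is a description, and it carries the same array effects in every gene. For Egr1 they were Inhba, an activin subunit gene (RMS 0.34), the nuclear receptor gene Nr4a1 (0.36) and Ankrd33b (0.43). Each of these had a smaller second ratio, at differences of responses between -0.58 and -0.31, where that of Egr1 was 0.67. Egr2 was compared only with the 96 genes that were likewise at the floor after 10 ECS and above it elsewhere. Its closest were Atf3, a stress-induced transcription factor gene (0.13), and Fosb, an AP-1 subunit gene (0.29), and Tnfrsf12a, a cytokine receptor gene, was far less close (1.31).

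Egr3 had close neighbours in genes that were likewise highest on the single ECS array. They were Dact1, a Wnt pathway regulator gene (RMS 0.05), Pmepa1, a TGF-beta pathway inhibitor gene (0.08), and Rbm15, an RNA-binding protein gene (0.12). Dact1 read 111, 234, 98.6 and 124 units from sham to 11 ECS. Their differences of responses were between -0.84 and -0.74. For Egr4 the closest were Gadd45b, a stress sensor gene (0.15), Sertad1 (0.25) and Inhba (0.27). Gadd45b had a difference of responses of -1.20 and Sertad1 of -1.54, beside the -1.49 of Egr4.

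**Figure D5:**
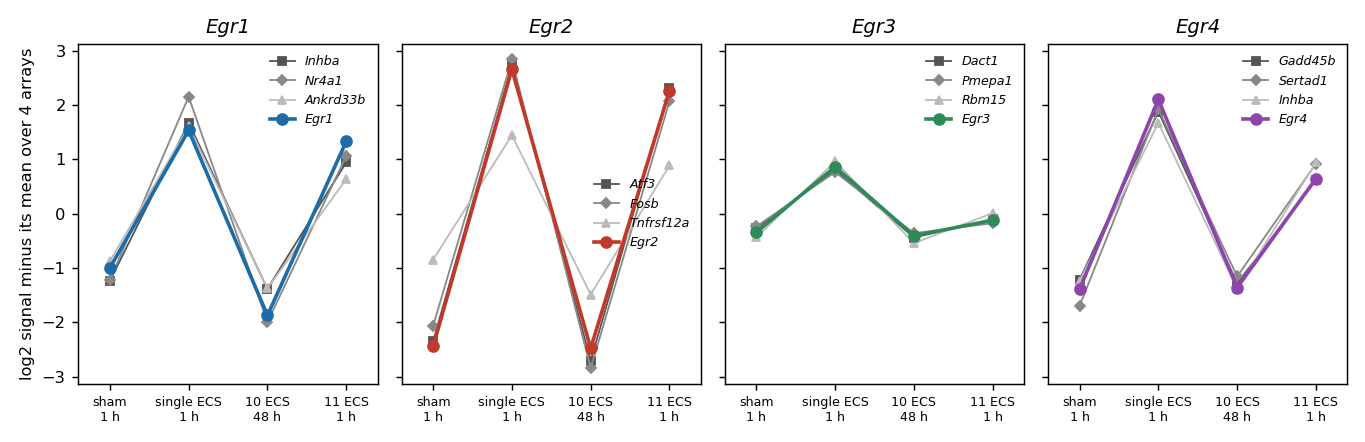
Profiles over the 4 arrays (log2 signal minus its mean, floor of 12 units applied) of each Egr gene (colour) and the 3 genes with the most similar profile (grey). Egr1 reaches similar heights on both 1 h ECS arrays, and Egr3 and Egr4 stand lower after 11 ECS. Egr2 is also lower after 11 ECS on this probe set, at a log2 ratio of -0.40, much like its neighbour Atf3 at -0.41. The neighbours of every member, those of Egr1 and Egr2 included, are lower after 11 ECS than after single ECS.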

How the data were processed

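RNA of the dissected DG was pooled per group, and the authors amplified 100 ng with a 3' in vitro transcription kit and hybridised Mouse Genome 430A 2.0 arrays. The deposited values are MAS5 intensity values on a linear scale (tool per the submitters' processing notes), 1 for each probe set and array. How arrays were scaled to each other is not stated in the labels or methods. Of 22626 probe sets besides 64 controls, 20380 had 1 symbol, 691 several and 1555 none.

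Log2 ratios were computed with Python 3.11.15, numpy 2.4.6 and pandas 2.3.3, and drawn with matplotlib 3.10.9, after setting signals under 12 units to 12. At least 2-fold is a size and not a test. With 1 array in each group no SE or p-value was computed, and the number of arrays limits the precision. The error available, the pooled SD of log2 ratios between probe sets of a gene, covers neither arrays nor mice. Code was tested on simulated data. Named genes were the members, list genes past 2-fold or, with these, the 4 farthest from 0, and the 3 nearest profiles. The alternatives were floors of 50 and none, 16 units added, 3 scalings and other probe sets. The members and lists were chosen with earlier results of these data known.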

Additional observations from a re-analysis of the deposited data

How the results depend on the processing

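The counts of members past 2-fold were within 1.5 times of the reported ones under all 8 alternatives in the 4 comparisons. The number of members whose second response was at least 2-fold smaller went from 1 to 2, Egr3 joining Egr4, under median scaling, trimmed mean scaling and quantile normalization. No ratio past 2-fold changed its sign. Of the values of single members, 136 moved by no more than the pooled SD between probe sets and 24 by more. Over the alternatives the log2 difference of responses ranged from 0.51 to 0.67 for Egr1, from -1.08 to -0.69 for Egr3 and from -1.65 to -1.36 for Egr4. For Egr2 it is not given, as its second response was a bound. Signal over background limits Egr2, Egr3 and Egr4. The first log2 ratio ranged from 3.08 to 5.26 for Egr2, from 0.69 to 1.50 for Egr3 and from 2.58 to 3.80 for Egr4, and with a floor of 50 the second ratio of Egr3 was 0 and that of Egr4 1.12. No paired analysis was possible because each group had 1 array, and for the same reason no array could be left out.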
